A study of Mus musculus with 12 samples.

Results

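Ccr9, Ccr4, Ccr2, Cxcr3, Cxcr4 and Cxcr6 encode receptors that direct T cells to inflamed sites and to particular tissues. They are described here as messenger RNA in spleen CD8 T cells. The genes were taken by symbol from the deposited count table, which held all 6 among its 16352 genes. All 6 passed the filter on low counts, as did 12404 genes in all. The study sequenced RNA of primary CD8 T cells from the spleens of C57BL/6 mice in 4 groups of 3 libraries: WT at 0 h, Trmt61A-cKO at 0 h, WT at 48 h and Trmt61A-cKO at 48 h. The product of Trmt61a is the catalytic part of the m1A methyltransferase of transfer RNA, and cKO stands for conditional knockout. The labels used here name neither the Cre driver of the knockout, nor the age of the mice, nor the treatment of the cells during the 48 h. They do not say that a library came from a single mouse, so p-values measure the spread between these libraries. The Y-linked and Trmt61a counts given below show that the libraries of a genotype did not all share a source. How much of the spread is technical is not known.

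Chemokine receptors are seven-helix membrane proteins that couple to Gi proteins and steer cells up gradients of small secreted ligands. Naive CD8 T cells circulate through lymphoid organs. After antigen they change their receptors, which lets effector cells enter inflamed or barrier tissue. Each receptor here has its own ligands: CCL25 of gut and thymus for CCR9, CCL17 and CCL22 for CCR4, CCL2 for CCR2, the interferon-induced CXCL9 and CXCL10 for CXCR3, CXCL12 for CXCR4 and CXCL16 for CXCR6.

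Total counts ran from 34341847 to 40270659 per library. Trmt61a was low in 4 of the 6 cKO libraries, at 0.807 to 1.88 CPM, the count scaled to library size. In the libraries labelled cKO replicate 1 it was at 28.1 CPM at 0 h and 42.5 CPM at 48 h, or 101 and 111 percent of the WT means. WT replicate 3 had at most 2 counts of any of 4 Y-linked genes, against at least 694 in each of the other 10 libraries. Replicate numbers follow the library titles: in the deposited counts WT replicate 2 is the column WT3 and WT replicate 3 the column WT6. The groups are kept as labelled, and values without either pair of libraries are given where they change a result. Cd8a lay between 1337 and 1542 CPM at 0 h and between 666 and 747 CPM at 48 h, so this defining marker was present in each.

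The 6 genes split by position. Ccr9, Cxcr6, Ccr2 and Ccr4 are on mouse chromosome 9, Cxcr4 on chromosome 1 and Cxcr3 on chromosome X. In the RefSeq order of protein-coding genes, Ccr9, Fyco1, Cxcr6, Xcr1, Ccr1, Ccr1l1, Ccr3 and Ccr2 follow one another, and Ccr4 lies elsewhere on the chromosome. Cxcr6 lies inside the body of Fyco1, an autophagy adaptor gene on the opposite strand, and the exons of the pair share 0 bases in GENCODE M21. Of the exon bases of Ccr9, 4.81 percent also belong to the noncoding gene Gm17200. Of the 50-base stretches of Ccr2 transcripts, 1.91 percent also occur in transcripts of other genes, and a read from such a stretch cannot be assigned to 1 gene. For Ccr9 the share is 20.1 percent with any other gene and 17.8 percent with AC165425.1, an overlapping noncoding gene on the opposite strand. Of the Ccr9 exon bases, 56, or 1 percent, also belong to that gene. These shares are from GENCODE M21, while the counts were made on GRCm39, so their effect on the Ccr9 counts is not known.

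Upstream sequences are shown for Ccr9 and Cxcr6, the chromosome 9 neighbours that fell together, and for Ccr4, which rose. Each is the 250 bases before the RefSeq start in GRCm38.p6, written 5′ to 3′ on the gene's strand, with motif matches in capitals.
Ccr9, chr9:123766961-123767210, strand +: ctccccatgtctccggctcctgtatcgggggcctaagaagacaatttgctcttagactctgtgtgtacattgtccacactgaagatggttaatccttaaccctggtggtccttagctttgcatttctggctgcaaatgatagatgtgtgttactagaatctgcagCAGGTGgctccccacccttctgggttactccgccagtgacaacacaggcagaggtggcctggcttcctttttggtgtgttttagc
Cxcr6, chr9:123806227-123806476, strand +: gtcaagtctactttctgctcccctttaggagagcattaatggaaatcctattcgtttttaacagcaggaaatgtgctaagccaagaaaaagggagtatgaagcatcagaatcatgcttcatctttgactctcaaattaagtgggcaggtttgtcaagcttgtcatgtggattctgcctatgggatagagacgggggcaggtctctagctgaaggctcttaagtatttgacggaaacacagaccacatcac
Ccr4, chr9:114496545-114496794, strand -: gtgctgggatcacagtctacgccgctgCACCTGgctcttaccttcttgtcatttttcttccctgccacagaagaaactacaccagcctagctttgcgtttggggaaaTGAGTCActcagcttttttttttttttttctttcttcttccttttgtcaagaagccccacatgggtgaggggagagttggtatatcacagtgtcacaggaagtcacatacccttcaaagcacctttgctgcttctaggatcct

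The capitals mark matches, on either strand, to 2 of 7 motifs searched. TGANTCA, the AP-1 motif, was found in Ccr4 alone among the 6 receptors, 143 bases before its start, and in 6.75 percent of 32851 upstream windows of this length. CAGGTG, an E-box of E proteins, was found in Ccr9, Ccr4 and Cxcr3 and in 17.2 percent of windows. The GATA factor motif AGATAA was found in Ccr2 and in 9.99 percent of windows. CCACACCC of KLF factors, GTAAACA of FOXO, AGGTGTGA of T-box factors and ACGTG of hypoxia response were found in none of the 6 and in 3.2, 3.17, 1.12 and 16.6 percent of windows. These motifs do not overlap one another in the printed windows, and a match describes letters, not binding.

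At 0 h the 6 transcripts spanned a wide range of levels. Per kilobase of exon, WT cells held most Cxcr4, at 120.5 ± 43.2 CPM per kb (SD, n = 3 libraries, as for all values after ± unless stated). Cxcr6 followed at 41.4 ± 3.26 and Ccr9 at 33.3 ± 2.63 CPM per kb. Cxcr3 stood lower at 4.34 ± 0.584 CPM per kb. Ccr2 at 0.316 ± 0.246 and Ccr4 at 0.300 ± 0.0861 CPM per kb were lowest, and their library ranges overlapped, as no other neighbours in this order did. In cKO at 0 h the order was the same except that Ccr4 came before Ccr2. There the ranges overlapped between Cxcr6 and Ccr9 and between Ccr4 and Ccr2.

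By 48 h Ccr4 led the order in both genotypes, at 22.7 ± 1.57 CPM per kb in WT and 18.7 ± 1.17 in cKO. In WT, Cxcr4 at 4.88 ± 1.95, Cxcr6 at 4.15 ± 0.944 and Cxcr3 at 3.08 ± 1.26 CPM per kb overlapped with their neighbours in the order. Ccr9 at 0.593 ± 0.168 and Ccr2 at 0.0445 ± 0.0234 CPM per kb came last and did not overlap. In cKO, Cxcr6 came before Cxcr4, again with overlapping ranges.

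**Figure D1:**
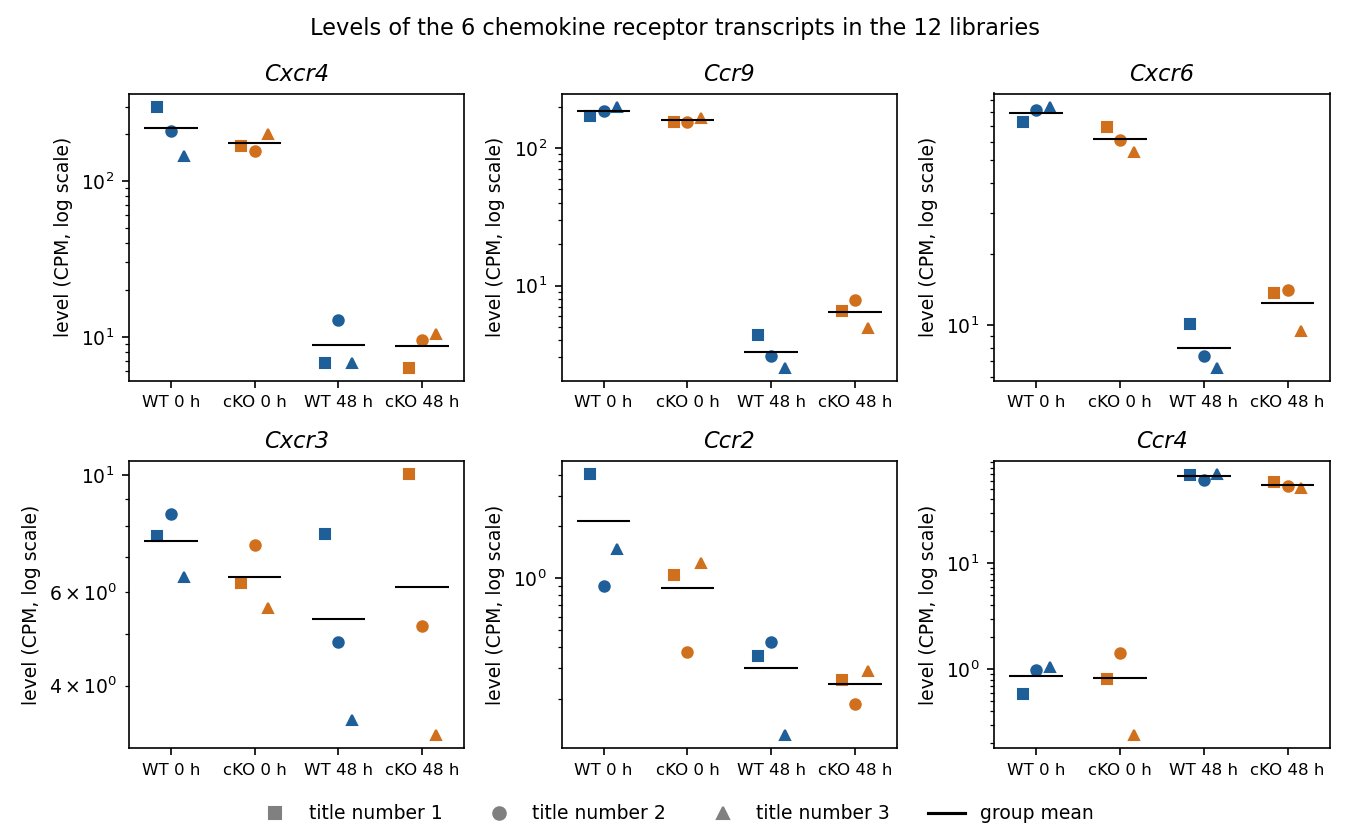
Level of each receptor transcript (CPM with TMM scaling, log axis) in the 12 libraries, by group, with marker shape for the number in the library title and a line for the group mean. Cxcr4, Ccr9, Cxcr6 and Ccr2 are lower in every 48 h library than in any 0 h library of the same genotype, Ccr4 is higher in every one, and the Cxcr3 libraries of the 2 times overlap.

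How the receptors of cells with an intact Trmt61a gene changed over 48 h was tested in WT. Ccr9, Cxcr4, Cxcr6 and Ccr2 fell, Ccr4 rose, and Cxcr3 did not pass the test. That is 5 of 6 genes called, 1 higher and 4 lower, where 75.4 percent of all tested genes were called, 36.9 percent higher and 38.4 percent lower (edgeR quasi-likelihood test, Benjamini-Hochberg adjusted p under 0.05). A count of 5 of 6 therefore lies near the background. DESeq2 and limma-voom also called 5, with 66.5 and 76.1 percent of genes called, as did edgeR without the pair labelled cKO replicate 1 (75.9 percent) or the pair of WT replicate 3 (67.3 percent). The median log2 fold change of the 6 was -3.07, against -0.02 over all tested genes. In bulk RNA, fewer cells with a transcript and less transcript per cell cannot be told apart.

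Ccr9, the gut-homing receptor, had 171, 187 and 200.4 CPM in the 3 WT libraries at 0 h and 4.35, 3.05 and 2.53 CPM at 48 h. Every 48 h library lay far under every 0 h library. The log2 fold change was -5.82 ± 0.19 (SE), a 56.4-fold fall (edgeR adjusted p = 1.63e-12). In cKO it went from 155, 156 and 166 CPM to 6.52, 7.89 and 4.93 CPM. The fall there was -4.62 ± 0.17 on the log2 scale, or 24.7-fold (edgeR adjusted p = 1.01e-11).

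Cxcr4, the receptor that holds cells in bone marrow and lymphoid stroma, had 300.0, 208 and 145 CPM in WT at 0 h and 6.78, 12.9 and 6.76 CPM at 48 h. Its 0 h libraries in WT spread widely, and replicate 1 was highest. This was a log2 fold change of -4.63 ± 0.30 (SE; edgeR adjusted p = 2.98e-09), a 24.7-fold fall. In cKO, levels of 167, 156 and 201 CPM went to 6.34, 9.59 and 10.4 CPM. That fall was -4.31 ± 0.30 (SE; edgeR adjusted p = 7.01e-09), or 19.9-fold.

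Cxcr6, a receptor of tissue-resident and liver-homing T cells, had 72.8, 82.2 and 84.8 CPM in WT at 0 h and 10.1, 7.38 and 6.59 CPM at 48 h. The groups did not overlap, and the log2 fold change was -3.32 ± 0.17 (SE), a 9.99-fold fall (edgeR adjusted p = 2.47e-10). In cKO it went from 69.5, 60.8 and 54.1 CPM to 13.7, 14.1 and 9.46 CPM, a change of -2.31 ± 0.17 (SE), or 4.95-fold (edgeR adjusted p = 1.01e-08). Fyco1, whose body surrounds Cxcr6, was added after its values were seen. It fell as well, from 131 ± 4.73 to 22.6 ± 2.07 CPM in WT and from 129 ± 15.4 to 34.6 ± 5.72 CPM in cKO.

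Ccr2, which brings monocytes and some effector and memory T cells to CCL2, was rare. It had 138, 32 and 54 counts in WT at 0 h and 13, 16 and 5 counts at 48 h, or 4.03, 0.902 and 1.48 CPM and 0.354, 0.425 and 0.123 CPM. The highest value was WT replicate 1 at 0 h. In WT the log2 fold change was -2.82 ± 0.69 (SE; edgeR adjusted p = 0.00188), and without that library it was -1.98 (edgeR adjusted p = 0.0200). In cKO, 35, 13 and 41 counts went to 10, 7 and 11 counts, a log2 fold change of -1.84 ± 0.70 (SE; edgeR adjusted p = 0.0275). The cKO call was lost with limma-voom (adjusted p = 0.0952), without cKO replicate 3 at 0 h (edgeR adjusted p = 0.0922) or without any one cKO library at 48 h (edgeR adjusted p = 0.0620, 0.0873 and 0.0534). Leaving out the 0 h library labelled cKO replicate 1 also lost it (edgeR adjusted p = 0.0682), as did leaving out the pair of that label (edgeR adjusted p = 0.11).

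Ccr4, the receptor for CCL17 and CCL22 that is found on skin-homing and type 2 T cells, went the other way. It had 20, 35 and 38 counts in WT at 0 h, or 0.584, 0.987 and 1.04 CPM, and 68.0, 60.9 and 69.5 CPM at 48 h. Every 48 h library was above every 0 h library, with a log2 fold change of 6.23 ± 0.29 (SE), a 75.3-fold rise (edgeR adjusted p = 7.18e-11). In cKO, 27, 49 and 8 counts at 0 h, or 0.808, 1.41 and 0.239 CPM, were followed by 58.2, 53.1 and 51.7 CPM at 48 h. In cKO the log2 fold change was 6.04 ± 0.29 (SE), or 65.6-fold (edgeR adjusted p = 1.44e-10), and 6.69 without cKO replicate 2 at 0 h, the highest of the 0 h libraries.

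Cxcr3, the receptor of type 1 effector T cells, had 7.68, 8.43 and 6.43 CPM in WT at 0 h and 7.73, 4.83 and 3.44 CPM at 48 h. The times overlapped, and the log2 fold change was -0.50, with a 95 percent interval from -1.25 to 0.26 (edgeR adjusted p = 0.214). In cKO, 6.25, 7.38 and 5.62 CPM at 0 h stood beside 10.05, 5.18 and 3.22 CPM at 48 h. The highest 48 h value was the library labelled cKO replicate 1. The log2 fold change was -0.06, with an interval from -0.81 to 0.69 (edgeR adjusted p = 0.884).

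In cKO the test called 5 of 6 receptors, Ccr4 higher and Ccr9, Cxcr4, Cxcr6 and Ccr2 lower. Of all tested genes 72.6 percent were called in cKO, 36.4 percent higher and 36.2 percent lower. DESeq2 called 5 receptors (63.4 percent of genes) and limma-voom 4 (73 percent). Leaving out the pair labelled cKO replicate 1 gave 4 (66.4 percent), and leaving out the pair of WT replicate 3 gave 5 (70.8 percent).

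**Figure D2:**
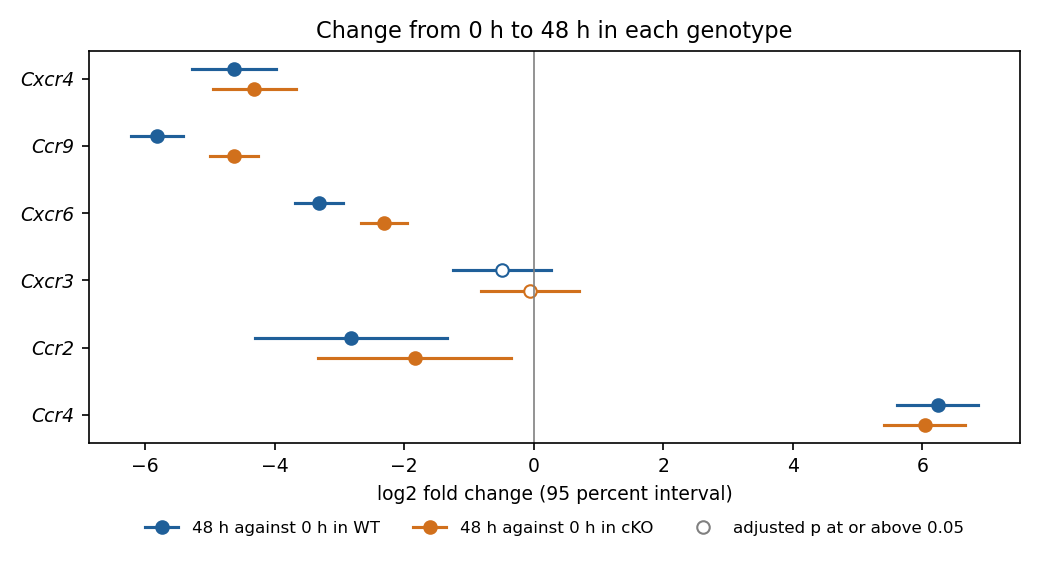
Log2 fold change from 0 h to 48 h of each receptor in WT and in cKO, with 95 percent intervals; open circles did not pass the test. Ccr9 and Cxcr6 stand at -5.82 and -3.32 in WT and at -4.62 and -2.31 in cKO, and Ccr4 is the 1 receptor to the right of 0 in both.

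Markers of other spleen cells are given beside these falls, where 38.4 percent of all tested genes were lower in WT and 36.2 percent in cKO. At 0 h the sum of the 16 myeloid markers was 150 to 227 CPM in WT and 195 to 469 CPM in cKO. Ly6c2 alone was 104 to 189 CPM in WT and 143 to 442 CPM in cKO. None of the 15 tested was called between genotypes at 0 h. At 48 h the sum was 55.8 to 68.4 and 47.8 to 100.01 CPM, most of it Ly6c2, which activated CD8 T cells also make. Of 15 tested, 11 were lower and 2 higher in WT, and 9 lower and 2 higher in cKO. Csf1r, the macrophage growth factor receptor, went from 77 to 330 counts at 0 h to 0 or 1 at 48 h. The sum of the 12 NK and innate lymphoid markers was 62.3 to 71.2 CPM in WT and 52.1 to 63.8 CPM in cKO at 0 h. After 48 h it was 144 to 149 CPM and 98.0 to 154 CPM, of which Eomes, which CD8 T cells also make, was 110 to 118 and 64.3 to 112 CPM. Of 11 tested, 8 were lower and 2 higher in WT, and 6 lower and 2 higher in cKO. Ncr1, an NK receptor, had 10 to 82 counts at 0 h and 0 in every library at 48 h. For the 9 plasmacytoid dendritic cell markers other than Ccr9 the sum was 168 to 222 CPM at first and 117 to 158 CPM after 48 h, and Siglech, their defining lectin, went from 1 to 21 counts to 0. Of the 10 tested with Ccr9, 7 were lower and 1 higher in WT, and 7 lower and 2 higher in cKO. All 12 B cell markers fell in both genotypes, from sums of 113 to 234 CPM to sums of 23.3 to 35.5 CPM. Of 4 gamma delta T cell markers tested, 3 fell in each genotype and 1 rose in cKO. The part of these cells in the falls of Ccr2, Cxcr6 and Ccr9 was not tested.

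CD4 and regulatory T cell markers bear on Ccr4, which regulatory T cells also make. At 0 h the sum of these 7 markers was 50.3 to 74.4 CPM in WT and 41.5 to 44.5 CPM in cKO. It was 469 to 558 and 287 to 350.3 CPM after 48 h. Most of the 48 h sum was Ctla4, which activated CD8 T cells also make, at 447 ± 42.9 and 239.5 ± 24.4 CPM. Cd4 itself was at 24.8 ± 4.37 CPM in WT at 0 h and 18.7 ± 2.34 CPM at 48 h, and at 15.5 ± 1.33 and 16.6 ± 1.93 CPM in cKO. Foxp3, the defining factor of regulatory T cells, rose in cKO from 2.88 ± 0.597 to 11.2 ± 4.15 CPM (log2 fold change 1.96 ± 0.32 SE, edgeR adjusted p = 6.07e-05). In WT it was at 4.32 ± 1.24 and 5.85 ± 1.94 CPM and did not pass the test (edgeR adjusted p = 0.21). Of the 7 markers, all tested, 3 rose and 1 fell in WT and 6 rose in cKO, where 36.9 and 36.4 percent of all tested genes rose. None of the 7 markers was at 0 in any library, and their part in the rise of Ccr4 was not tested.

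The other chemokine receptors give a frame. Of 18 listed, 16 were in the table and 10 passed the filter. In each genotype 4 of the 10 rose and 4 fell. Of all tested genes 36.9 percent rose and 38.4 percent fell in WT (36.4 and 36.2 percent in cKO), so these counts lie near the background. The median over the 10 was -0.32 on the log2 scale in WT and -0.22 in cKO. Ccr8, a receptor of skin and regulatory T cells, rose by 4.40 ± 0.70 (SE) on the log2 scale in WT and 5.55 ± 0.84 (SE) in cKO. Ccr7, the lymph node receptor of naive cells, was abundant and rose by 0.59 ± 0.10 (SE, log2) in WT, from 379 to 398 CPM at 0 h to 526 to 645 CPM at 48 h, and by 0.42 ± 0.10 (SE, log2) in cKO. Ccrl2, an atypical receptor, rose by 2.69 ± 0.55 (SE, log2) in WT and 1.58 ± 0.54 (SE, log2) in cKO. Those that fell were Ccr1, Ccr3, Cxcr2 and Cx3cr1, each at no more than 1.53 CPM in any library at 0 h.

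Ligands were scarce in these libraries: of 11 listed, 9 were in the table and 6 passed the filter. In each genotype 1 rose and 2 fell. Of all tested genes 36.9 percent rose and 38.4 percent fell in WT (36.4 and 36.2 percent in cKO). Cxcl10, a ligand of CXCR3, rose from 0.813 ± 0.317 to 14.02 ± 4.24 CPM in WT (log2 fold change 4.10 ± 0.58 SE, edgeR adjusted p = 1.28e-05) and from 1.502 ± 1.55 to 6.17 ± 0.596 CPM in cKO (2.04 ± 0.53 SE, edgeR adjusted p = 0.00313). Cxcl12, the ligand of CXCR4 and a stromal product, fell in WT from 50, 63 and 86 counts at 0 h to 0, 1 and 0 counts at 48 h. Cxcl9 also fell, by 3.14 on the log2 scale in WT (SE 1.02) and by 4.36 in cKO (SE 1.18). Ccl22, a ligand of CCR4, was at 0.843 CPM at 0 h and 2.31 CPM at 48 h in WT and did not pass the test (edgeR adjusted p = 0.0508).

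Genes that carry or end the receptor signal were set beside all tested genes, of which 38.4 percent fell and 36.9 percent rose in WT and 36.2 and 36.4 percent in cKO. Of 19 tested transducers 12 fell and 6 rose in WT, and 11 fell and 5 rose in cKO, with median log2 fold changes of -0.31 and -0.43. Rasgrp2, an activator of the integrin switch RAP1, fell by 3.995 on the log2 scale in WT (SE 0.085). Plcb2, a phospholipase below Gi proteins, fell by 2.72 (SE 0.093), Prex1, an activator of RAC, by 2.42 (SE 0.10), and Rac2, the RAC protein of blood cells, by 1.62 (SE 0.054). Of 14 tested genes that end receptor signalling, 10 fell and 3 rose in WT and 9 fell and 3 rose in cKO. Arrb2, an arrestin, fell by 1.85 in WT (SE 0.082), Rgs14 by 2.36 (SE 0.12) and Rgs10 by 2.41 (SE 0.13), both regulators of G protein signalling. Rgs16, of the same family, rose by 4.87 ± 0.27 (SE, log2) in WT and 5.62 ± 0.28 (SE, log2) in cKO.

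Among 10 transcription factors linked to these receptors, 4 rose and 5 fell in WT, and 4 rose and 4 fell in cKO, a split close to that of all tested genes. Klf2, a factor of quiescent and recirculating T cells, fell by 5.09 on the log2 scale in WT (SE 0.17; edgeR adjusted p = 2.65e-12). Tbx21, which encodes T-bet, the type 1 factor known to drive Cxcr3, rose by 4.52 ± 0.22 (SE, edgeR adjusted p = 9.65e-11). Foxo1, a factor of naive cells, fell by 1.51 (SE 0.071), and Rara, a retinoic acid receptor, fell by 1.34 (SE 0.083). Gata3, the type 2 factor linked to Ccr4, went from 28.9 to 13.3 CPM in WT and was added after its values were seen. Whether any of these factors acted on the receptors was not tested.

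Whether the receptors differed by genotype at the start was tested at 0 h. No receptor passed: edgeR called 0 of 6, where 0.00806 percent of genes, or 1 of 12404, were called. At an unadjusted p under 0.05 edgeR had 1 of 6, where 1163 of the 12404 genes lay. DESeq2 called 0 of 6 and 0.265 percent of genes, and limma-voom 0 of 6 and 0 percent. Each of these 2 tools had 2 of 6 at an unadjusted p under 0.05, a level not counted over all genes for them. Leaving out the pair labelled cKO replicate 1 or the pair of WT replicate 3 also gave 0 of 6, with 0.15 and 0 percent of genes called. Cxcr6 was lower in each cKO library, at 54.1 to 69.5 CPM, than in any WT library, at 72.8 to 84.8 CPM. Its log2 fold change was -0.38, with a 95 percent interval from -0.71 to -0.05 (edgeR adjusted p = 0.489). Ccr9 also did not overlap, at 155 to 166 CPM in cKO and 171 to 200.4 CPM in WT. Its log2 fold change was -0.23, with an interval from -0.53 to 0.08 (edgeR adjusted p = 0.642). The share of all tested genes without overlap was not counted, so neither separation is read as a genotype difference. The values of Ccr4, Ccr2, Cxcr3 and Cxcr4 overlapped between the genotypes. Their log2 fold changes were -0.08, -1.27, -0.23 and -0.32, and the interval of Ccr2 reached from -2.65 to 0.10.

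The same test at 48 h addressed the genotypes after the change. Ccr9 was higher in cKO, Cxcr6 lay just outside the threshold in the same direction, and the other 4 did not pass the test. That is 1 of 6 called, where 4.18 percent of all tested genes were called, 3.1 percent higher and 1.09 percent lower. DESeq2 called 2 (9.35 percent of genes) and limma-voom 1 (5.33 percent). Leaving out the pair labelled cKO replicate 1 gave 2 (17.7 percent), and leaving out the pair of WT replicate 3 gave 0 (0.127 percent). Ccr9 had 6.52, 7.89 and 4.93 CPM in cKO and 4.35, 3.05 and 2.53 CPM in WT, on counts of 103 to 297. Each cKO library was above each WT library, the library labelled cKO replicate 1 included. The log2 fold change was 0.96 ± 0.18 (SE), or 1.95-fold (edgeR adjusted p = 0.0129). The call was lost without WT replicate 3 at 48 h (0.81, edgeR adjusted p = 0.0844), without both of its libraries (0.79, adjusted p = 0.0967), without cKO replicate 2 at 48 h (0.80, adjusted p = 0.0714) and when only the 6 libraries at 48 h were fitted (0.96, adjusted p = 0.0870). When the pair labelled cKO replicate 1 was left out it held, at 0.96 (edgeR adjusted p = 0.00830).

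Cxcr6 had 13.7, 14.1 and 9.46 CPM in cKO and 10.1, 7.38 and 6.59 CPM in WT at 48 h. Replicate 3 of cKO lay under replicate 1 of WT. The log2 fold change was 0.63, with a 95 percent interval from 0.27 to 0.997 (edgeR adjusted p = 0.0508). The adjusted p was 0.00564 by DESeq2 and 0.0998 by limma-voom. By edgeR it was 0.0484 when the pair labelled cKO replicate 1 was left out and 0.264 when the pair of WT replicate 3 was. Over 22 alternatives the log2 fold change stayed between 0.50 and 0.85, and 8 of them called it. In the same libraries Fyco1 was at 30.7, 41.1 and 31.9 CPM in cKO and 20.9, 24.9 and 21.9 CPM in WT, a log2 fold change of 0.61 ± 0.12 (SE; edgeR adjusted p = 0.0130).

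**Figure D3:**
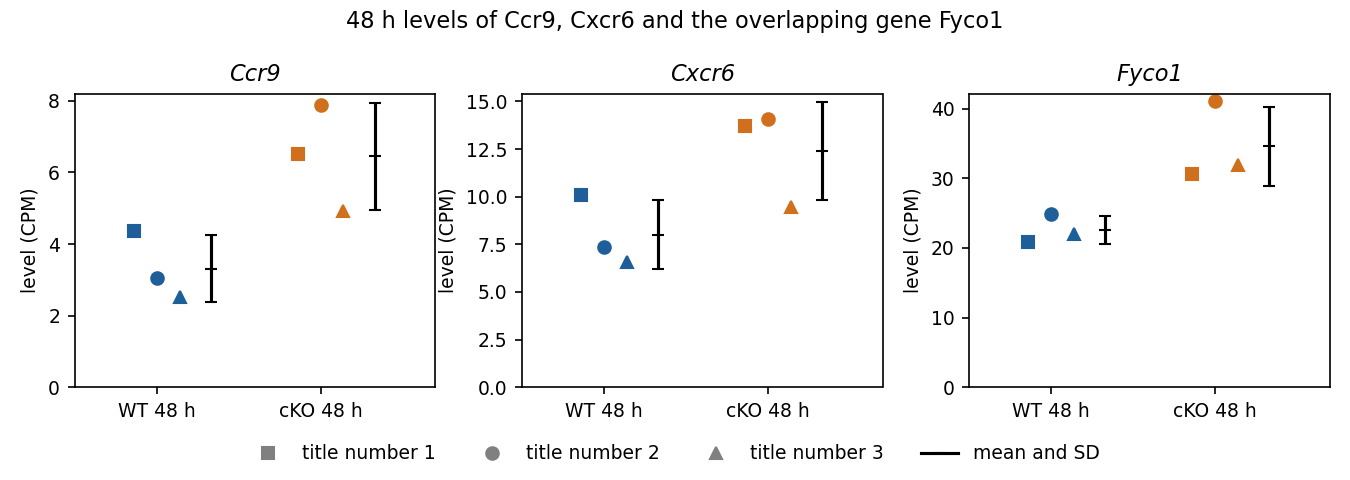
Levels (CPM, linear axis from 0) of Ccr9, Cxcr6 and Fyco1 in the 3 WT and 3 cKO libraries at 48 h, with marker shape for the number in the library title, and the mean with its SD at the right of each group. Each cKO library is above each WT library for Ccr9 and Fyco1, and Cxcr6 overlaps at 9.46 CPM in cKO and 10.1 CPM in WT.

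Ccr4 at 48 h was 58.2, 53.1 and 51.7 CPM in cKO and 68.0, 60.9 and 69.5 CPM in WT. The groups did not overlap, but the log2 fold change of -0.28, with an interval from -0.72 to 0.16, did not pass the test (edgeR adjusted p = 0.446). At 48 h, too, the share of all tested genes without overlap was not counted. Separation alone is therefore not read as a genotype difference for any gene at that time. Cxcr4 had nearly equal means of 8.79 ± 2.16 CPM in cKO and 8.81 ± 3.53 CPM in WT. Its log2 fold change was 0.00, with an interval from -0.62 to 0.62. Cxcr3 at 3.22 to 10.05 CPM in cKO and 3.44 to 7.73 CPM in WT had a log2 fold change of 0.21, with an interval from -0.55 to 0.96. Ccr2, at 5 to 16 counts in each library, had an interval from -1.83 to 1.24, which includes a 2-fold difference in either direction, so a difference of that size was not detectable at this depth.

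**Figure D4:**
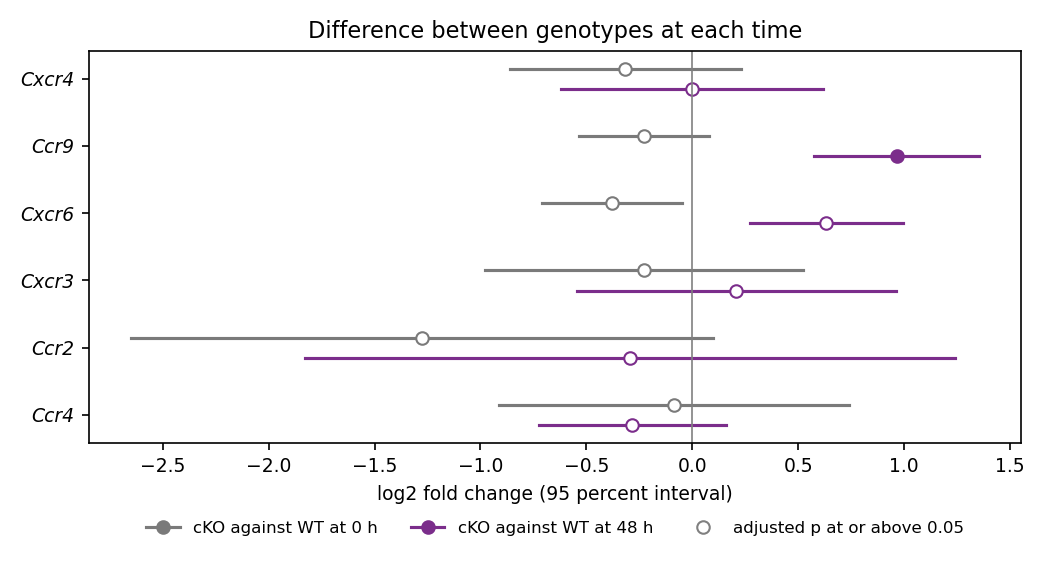
Log2 fold change of cKO against WT for each receptor at 0 h and at 48 h, with 95 percent intervals; open circles did not pass the test. Ccr9 at 48 h is the 1 filled circle, at 0.96, and the intervals of Ccr2 are the widest.

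Markers of other cells at 48 h stood beside these values, where 4.18 percent of all tested genes were called. Siglech and Klk1, plasmacytoid dendritic cell genes, were at 0 counts in all 6 libraries, and the 9 markers without Ccr9 summed to 117 to 132 CPM in cKO and 126 to 158 CPM in WT, most of it Bst2. Of that list, the means of Cox6a2, Pacsin1, Spib and Lair1 (2.53 and 1.98 CPM) were higher in cKO than in WT. Those of Bst2 (76.5 and 109 CPM), Tcf4 (6.58 and 6.88 CPM) and Ly6d (1.65 and 1.80 CPM) were lower in cKO. None of these genes passed the test. Cox6a2 had 0, 124 and 166 counts in cKO and 7, 13 and 1 in WT (edgeR adjusted p = 0.0999). Pacsin1 did not overlap, at 29.9 to 33.5 CPM in cKO and 20.6 to 29.4 CPM in WT (edgeR adjusted p = 0.133), and Spib was at 2.06 ± 0.409 and 1.38 ± 0.758 CPM (edgeR adjusted p = 0.437). Of the NK and innate lymphoid markers none was called. Ncr1 was at 0 in all 6 libraries, and Klrb1f had 26, 36 and 38 counts in cKO and 15, 8 and 5 in WT, without overlap (edgeR adjusted p = 0.0719). The summed gamma delta T cell markers were 1.86 to 3.16 CPM in cKO and 0.956 to 1.96 CPM in WT. Foxp3 was at 7.13 to 15.4 CPM in cKO and 4.28 to 8.02 CPM in WT (edgeR adjusted p = 0.0928). The summed myeloid markers, at 47.8 to 100.01 CPM in cKO and 55.8 to 68.4 CPM in WT, overlapped, and 2 of 15 tested, the neutrophil genes S100a8 and S100a9, were higher in cKO, at 20 to 39 and 42 to 73 counts against 0 or 1 count in WT. Of the CD4 and regulatory T cell markers, 1 of 7, Ctla4, was lower in cKO. The part of these cells in the values of Ccr9, Cxcr6 and Ccr4 was not tested.

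Pathway genes at 48 h were set beside the 4.18 percent of all tested genes called. Of the transducers 2 of 19 were higher and none lower, namely Plcb2 by 0.51 ± 0.089 (SE; edgeR adjusted p = 0.00960) and Dock2, which activates RAC below chemokine receptors, by 0.39 ± 0.074 (SE; adjusted p = 0.0129). Rgs16 was higher as 1 of 14 damping genes (0.86 ± 0.21 SE, edgeR adjusted p = 0.0391). It had 85.2, 149.6 and 148.5 CPM in cKO, with replicate 1 lowest, and 72.0, 76.4 and 63.1 CPM in WT. Klf2 was higher, at 32.9, 35.7 and 34.5 CPM in cKO and 23.3, 22.8 and 18.8 CPM in WT, as 1 of 10 transcription factors (0.67 ± 0.15 SE, edgeR adjusted p = 0.0275). Tbx21 had 83.1, 54.1 and 62.8 CPM in cKO, with replicate 1 highest, and 100.5, 92.8 and 101.5 CPM in WT. It did not pass the test (edgeR adjusted p = 0.0886). By edgeR none of the 10 other receptors and none of the 6 ligands tested was called at 48 h.

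The interaction, the cKO change over time minus the WT change, asks whether the receptors moved differently in the 2 genotypes. By edgeR 0 of 6 were called, where 0.113 percent of all tested genes were, 0.105 percent higher and 0.00806 percent lower. At an unadjusted p under 0.05, where 2073 of 12404 genes lay, there were 2 of 6 receptors. Those were Ccr9, at 1.19 ± 0.23 (SE; adjusted p = 0.0640; interval from 0.70 to 1.69), and Cxcr6, at 1.01 ± 0.23 (SE; adjusted p = 0.0801; interval from 0.52 to 1.504). On this scale each fell by about 1 log2 unit less in cKO. DESeq2 called both (adjusted p = 4.61e-05 and 0.00338), where it called 4.1 percent of genes, and limma-voom called neither (adjusted p = 0.0908 and 0.0916), with 0.153 percent of genes called. When the pair labelled cKO replicate 1 was left out, edgeR called both (adjusted p = 0.0252 and 0.0276), with 6.87 percent of genes called. Without both libraries of WT replicate 3 it called neither (adjusted p = 0.333 and 0.336), with 0 percent of genes called. The other 4 receptors had interaction values of -0.20 for Ccr4, 0.98 for Ccr2, 0.44 for Cxcr3 and 0.31 for Cxcr4, each with an interval that held 0.

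**Figure D5:**
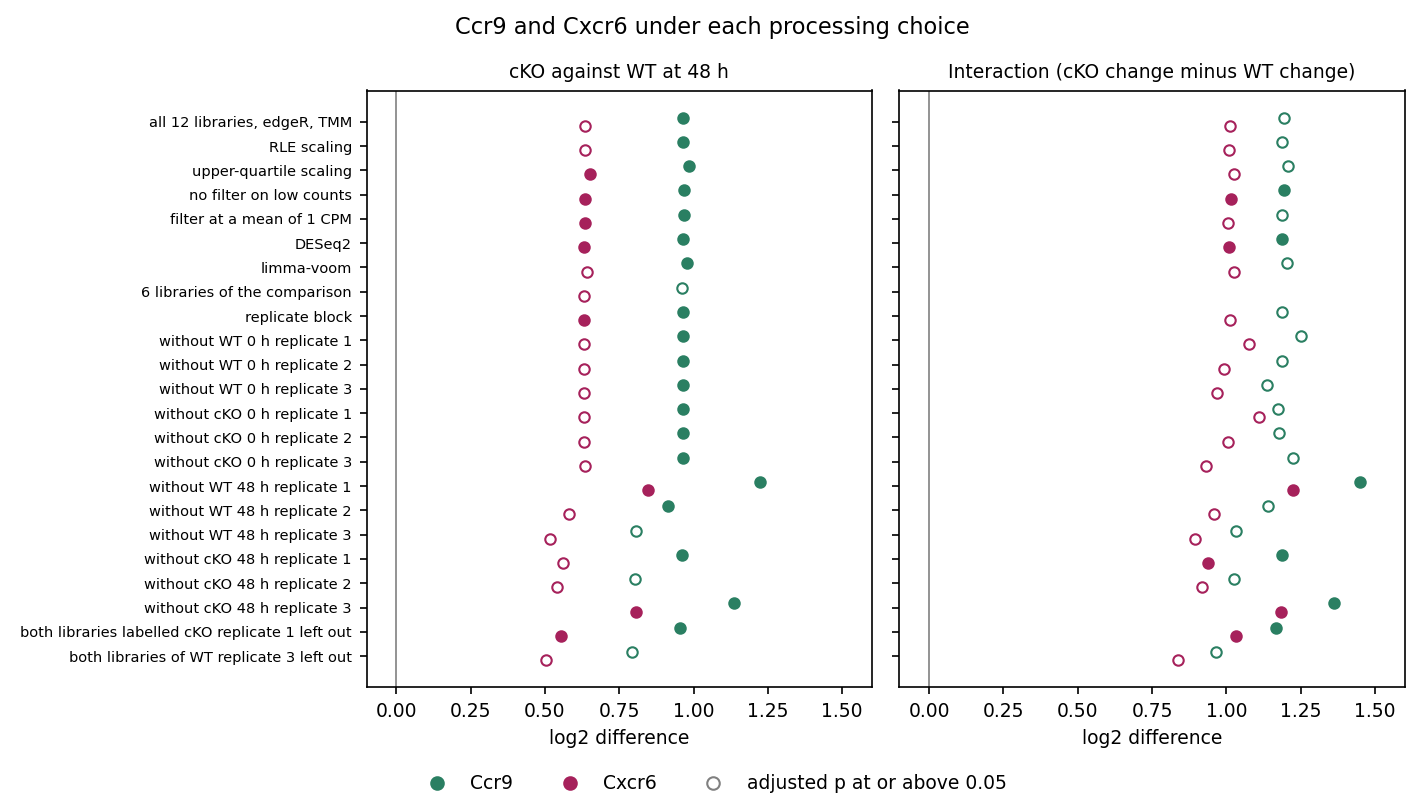
Log2 difference of Ccr9 and Cxcr6 for cKO against WT at 48 h (left) and for the interaction (right) under each processing choice and each left-out library; filled circles passed the test. Ccr9 stays between 0.79 and 1.22 and Cxcr6 between 0.50 and 0.85 at 48 h, and the interaction of both stays at or above 0.84 under every choice shown.

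Ccr9 and Cxcr6 also varied together within groups. Across the 12 libraries, the deviations of their log2 CPM from the group means had a Pearson r of 0.86. The value was 0.75 for Cxcr3 with Cxcr6, 0.62 for Cxcr3 with Ccr9, and -0.26 and -0.46 for Cxcr4 with Ccr9 and with Cxcr6. These are descriptions over libraries that share depth and scaling.

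The genes most like each receptor were taken from 9313 tested genes of at least 5 CPM outside the lists, by Pearson r of log2 CPM over the 12 libraries. For Ccr9 they were Sorl1, Prkacb and Phf1, with r of 0.999, 0.998 and 0.998. For Cxcr6 they were Ddx6, Zfp652 and Gm33989, at 0.997, 0.996 and 0.996, and for Cxcr4 Tsc22d3, Pnrc1 and Prxl2c, at 0.997, 0.995 and 0.994. Tsc22d3, known as a glucocorticoid-induced gene, went from 729 to 28.3 CPM in WT. For Ccr4 they were Pbk, Oip5 and Cks1b, all genes of dividing cells, at 0.998, 0.998 and 0.997. Ccr2 and Cxcr3 had no match as close: Arih1, Snx20 and Numb at 0.925, 0.919 and 0.911, and Jade2, Nfyc and Nup153 at 0.807, 0.791 and 0.786. By deviations from the group means, the closest were Xkrx, Usp28 and Sorl1 for Ccr9 (0.930, 0.927 and 0.921), Phf1, Entpd5 and Lrch4 for Cxcr6 (0.959, 0.936 and 0.909) and Zbtb40, Tmem131 and Zfp335 for Cxcr3 (0.972, 0.940 and 0.929). They were Zbtb21, Ccni and Sh2d4b for Cxcr4 (0.964, 0.949 and 0.940), Pbk, Cks1b and Acer3 for Ccr4 (0.982, 0.939 and 0.933) and Kat7, Ccdc28b and Ubxn8 for Ccr2 (0.873, 0.858 and 0.856). All of these are the highest of 9313 values over only 12 libraries, so a high r is no sign of shared control, which was not tested. The r of levels also reflects the change over time, for which 75.4 percent of all tested genes were called in WT.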

How the data were processed

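The values deposited by the authors are raw counts of reads for each gene in 12 libraries. The submitters' processing notes name HTSeq 0.11.2, SAMtools 1.9, HISAT2 2.1.0, FastQC 0.11.9, fastp 0.20.1 and GRCm39. Strand settings are not given in the sources used here. It is therefore not known whether reads from stretches where genes on opposite strands overlap, such as Cxcr6 and Fyco1, were assigned by strand. The labels' protocols name TRIzol and a NEBNext Ultra kit. Library totals are in the report.

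The test was that of edgeR 4.0.16 (R 4.3.3): filterByExpr (minimum count 10, minimum total 15), TMM factors, 1 quasi-likelihood fit with 4 group means and 8 residual degrees of freedom, 5 comparisons, and Benjamini-Hochberg adjustment over 12404 genes. Precision falls with the count, so Ccr2 is the least certain receptor. SE was derived from each log2 fold change and its F statistic. DESeq2 1.42.0 and limma-voom (limma 3.58.1) were alternatives, with RLE and upper-quartile scaling, other filters, a replicate block and left-out libraries. The code was tested on simulated data, and no 2 libraries of a group agreed within sampling noise.

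The receptors and lists were chosen with earlier results of these data known. Named genes are the 6 receptors, Trmt61a, Ccr7, up to 4 members of each list with the smallest adjusted p, and the 3 genes most like each receptor by 2 measures; Fyco1, Gata3, Csf1r, Ncr1, Cox6a2, Klrb1f and other markers were added after their values were seen, and 1 gene that the rule names is not reported here. Exon lengths are from GENCODE M21 (GRCm38) and upstream sequences from RefSeq (GRCm38.p6); all 6 receptors matched. Coordinates in that build are not those of the counts.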

Additional observations from a re-analysis of the deposited data

How the results depend on the processing

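The receptor counts for 48 h against 0 h in WT (5) and cKO (4 or 5) and for cKO against WT at 0 h (0) kept within 1.5 times under every alternative run. At 48 h the count of 1 became 2 with upper-quartile scaling, no filter, a filter at 1 CPM, DESeq2 or without both libraries labelled cKO replicate 1, and 0 with the 6 libraries of the comparison or without both of WT replicate 3; leaving out single libraries gave 0 to 2. The interaction count of 0 became 2 with no filter, with DESeq2 or without both libraries labelled cKO replicate 1, and ranged from 0 to 2 with single libraries left out. The share of all tested genes called moved as well. At 48 h it was 4.18 percent in the main edgeR fit and 9.35 percent with DESeq2. It was 17.7 percent without both libraries labelled cKO replicate 1 and 0.127 percent without both of WT replicate 3. For the interaction these shares were 0.113, 4.1, 6.87 and 0 percent in that order. Shares under the other scalings, other filters, 6 libraries and single left-out libraries are not given here. The cause of these moves was not tested. With a replicate block the count at 48 h was 2, with Cxcr6 added, and that of the interaction stayed at 0; over all genes the block called 751 at 48 h and 37 for the interaction, against 519 and 14 without it. Libraries of a genotype share their numbers between 0 h and 48 h, but the labels do not say that such libraries came from the same mouse. The correlations of deviations of same-numbered libraries did not all pass 0.1 in any pair of groups. Between 0 h and 48 h each library correlated best with its own number (0.0708, 0.0973 and 0.151 in WT, 0.0521, 0.0628 and 0.0338 in cKO). The low Y-linked counts of WT replicate 3 and the WT-level Trmt61a of cKO replicate 1 also recurred at both times. These values point to pairing by number between the times, which the main test did not use.

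Signs turned only for differences that no setting called. Cxcr4 at 48 h was 3.96e-04 with RLE scaling, 0.0169 with upper-quartile scaling, 5.52e-04 with DESeq2, 0.0359 with limma-voom, 7.93e-04 with 6 libraries, 0.0286 with the replicate block, 0.19 without both libraries labelled cKO replicate 1, and -0.15 to 0.38 with single libraries left out. Cxcr3 at 48 h was -0.34 without both libraries labelled cKO replicate 1, -0.0339 without both of WT replicate 3 and -0.34 to 0.59 with single libraries left out; its interaction was -0.13 in the first setting and -0.11 to 0.82, and its cKO change over time -0.60 to 0.26. Ccr4 at 0 h was 0.0674 without both of WT replicate 3 and -0.74 to 0.35 with single libraries left out, its interaction 0.0776 with limma-voom and -0.63 to 0.45. Ccr2 at 48 h ranged from -0.66 to 0.0399 with single libraries left out. Ccr2 fell under the filter at 1 CPM and has no value there, and the interaction cannot be fitted from 6 libraries. The median gene shifted by -0.104 over time in WT with upper-quartile scaling.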
